A study of Luffa aegyptiaca with 4 samples.

Results

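In RNA-seq of Luffa aegyptiaca, the sponge gourd, 139 transcripts were listed at exactly 0 in both control libraries and reached at least 5 FPKM in both libraries of heat-stressed samples. FPKM is a fragment count corrected for transcript length and for the number of fragments mapped in the library. These transcripts were chosen by those values, in all 4 libraries, out of 48619 rows of 1 transcript each, and no lipoxygenase row was admitted. The difference between control and heat is therefore how they were picked and is given as a description, with no test. Of the 29 lipoxygenase rows left aside, 0 met the same values.

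The study had 2 control and 2 heat-stressed samples, numbered as biological replicates 1 and 2 of each group. The source is given only as tissue, and the organ, age, cultivar, temperature and length of treatment are not stated, so no marker of a tissue could be set beside the label. Summed FPKM lay between 551921 and 599611 per library, and between 22556 and 24068 transcripts were above 0 in each. Read depth is unknown. Since a transcript can also be listed at 0 because its estimate failed, the 139 are described as listed at 0 and not as absent. In whole tissue, fewer cells of a type and less RNA per cell cannot be told apart.

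Plants respond to heat through heat shock transcription factors, which bind heat shock elements in promoters and switch on genes for chaperones. Chaperones such as the HSP70, HSP90 and HSP101 families and the small heat shock proteins hold or refold damaged proteins. In model plants such as Arabidopsis, several small heat shock protein genes are almost silent in vegetative tissue at moderate temperature and reach very high transcript levels in the heat. The rows described here carry a number and no gene name, so which of them, if any, encode such proteins was not analysed here.

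The rule narrowed the table in steps. Among the 48590 rows without a lipoxygenase name, 24714 were listed at 0 in both controls, and 21120 of these were at 0 under heat as well. Of the other 3594, 1618 were above 0 in both heat libraries. The 139 transcripts were the part of those 1618 that reached 5 FPKM in both. They made up 1.29% of the 10745 rows that reached this minimum in both heat libraries, called heat-expressed rows from here on. This share describes the values that the rule used and was not tested. The reverse pattern, 0 in both heat libraries and 5 FPKM or more in both controls, was met by 36 rows, or 0.298% of 12092. These 36 had a median control level of 8.73 FPKM, and together they held 0.111% and 0.0973% of summed FPKM in control replicates 1 and 2.

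The minimum of 5 FPKM ran through a continuous range of values. The lowest value of a chosen transcript in either heat library was 5.04 FPKM, and 15 of the 139 had a lower heat value under 6 FPKM. Just outside, 22 rows at 0 in both controls had a lower heat value between 4 and 5 FPKM, the highest at 4.96. Rows at 0 in both controls reached the minimum in heat replicate 1 alone in 27 cases and in heat replicate 2 alone in 37. Of these rows, 20 were listed at 0 in the heat library where they fell short, and 1 stood as high as 85.9 FPKM in the heat library where it passed.

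The limit on the control side was an exact 0, and some rows lay close above it. Among heat-expressed rows, 0 had a higher control value above 0 and at most 0.001 FPKM, 1 had one of at most 0.01, and 36 had one of at most 0.1. Of those 36 rows, 28 were at 0 in 1 of the controls. A further 207 rows had a higher control value above 0.1 and at most 1 FPKM, and 88.2% of the 10745 rows exceeded 5 FPKM in a control.

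Exact zeros in a single control were also seen. Control replicate 1 alone was at 0 for 60 heat-expressed rows, of which 52 stood at 0.5 FPKM or less in control replicate 2. Control replicate 2 alone was at 0 for 34 rows, of which 22 stood at 0.5 FPKM or less in control replicate 1. An exact 0 could also stand beside a high value in the other control. The highest such value was 65.2 FPKM among the 60 rows and 145 FPKM among the 34 rows. The most abundant row at 0 in control replicate 1 alone stood at 0.564 FPKM in control replicate 2 and at 1829 and 2226 FPKM under heat, above every one of the 139. Its values and those of the chosen transcripts differ on the control side by less than 1 FPKM.

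Levels among the 139 transcripts ranged widely. In heat replicate 1 they ran from 5.04 to 1054 FPKM with a median of 20.2, and in heat replicate 2 from 5.13 to 1166 FPKM with a median of 20.9. The other 10606 heat-expressed rows had medians of 18.6 and 19.2 FPKM, so the middle of both distributions was alike. The upper quartiles were 59.3 and 71.1 FPKM for the 139 and 39.5 and 39.1 FPKM for the other rows.

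The most abundant of the 139 was Luffa_aegyptiaca38587.t01. It was listed at 0 in both controls and stood at 1054 and 1166 FPKM in heat replicates 1 and 2, which placed it at rank 47 and rank 37 of all rows in those libraries. The next was Luffa_aegyptiaca37242.t01, listed at 0 in both controls and at 961 and 841 FPKM under heat, at ranks 61 and 54. Both heat libraries held each of these transcripts among their 100 most abundant rows, and both controls listed each of them at 0. No fold is given, since the controls are at 0 and depth is unknown.

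Behind these, the transcript at rank 3 stood at 961 and 783 FPKM in heat replicates 1 and 2, that at rank 4 at 896 and 757, and that at rank 5 at 776 and 851. The transcripts at ranks 6 to 8 by mean level lay between 493 and 719 FPKM in either heat library, and those at ranks 9 to 11 between 398 and 493 FPKM. A gap followed in heat replicate 1 but not in replicate 2. In replicate 1 the transcripts at ranks 12 to 33 stood between 56.5 and 288 FPKM, below all of the first 11, whereas in replicate 2 they stood between 104 and 538 FPKM and overlapped them. The remaining 106 lay between 5.04 and 98.98 FPKM in replicate 1 and between 5.13 and 101 FPKM in replicate 2. The borders of these 3 tiers were drawn after the values had been seen.

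**Figure D1:**
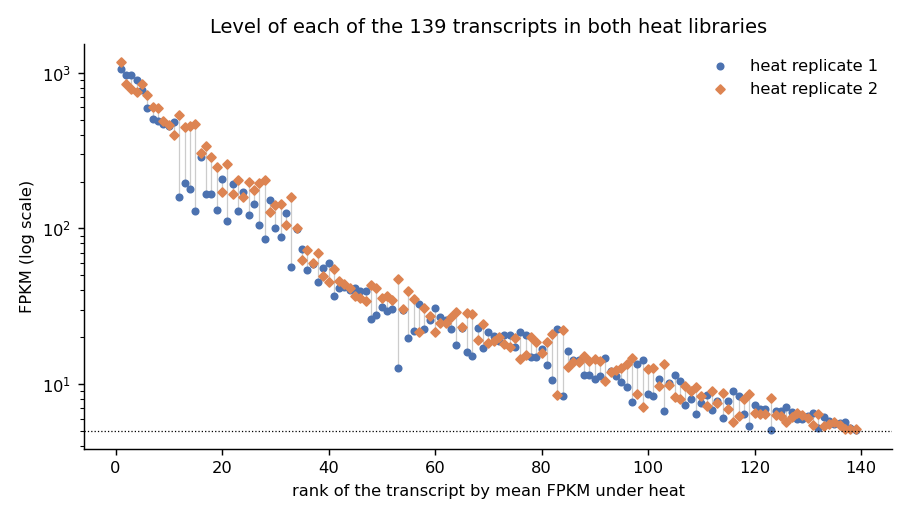
FPKM (log scale) of each of the 139 transcripts in heat replicate 1 (circles) and heat replicate 2 (diamonds), ordered by mean level, with a grey line joining the values of 1 transcript and a dotted line at the minimum of 5 FPKM. Replicates lie close together for the first 11 transcripts, and most of the transcripts at ranks 12 to 33 are higher in heat replicate 2.

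The 139 transcripts were unevenly spread over levels of abundance. By mean heat level, 36 lay between 5 and 10 FPKM, 63 between 10 and 50, 7 between 50 and 100, 25 between 100 and 500, and 8 at 500 or above. As a share of all rows of the same level, the lowest band held 1.44%, and the next bands held 1.03%, 0.600%, 3.11% and 6.61%. The share was thus lowest between 50 and 100 FPKM and was highest in the top band. For the reverse pattern, banded by mean control level, the shares were 0.757%, 0.171%, 0%, 0.132% and 0%, with 1 row above 100 FPKM. The bands from 50 FPKM upward rest on few of the 139, and these shares are descriptions of 4 libraries.

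**Figure D2:**
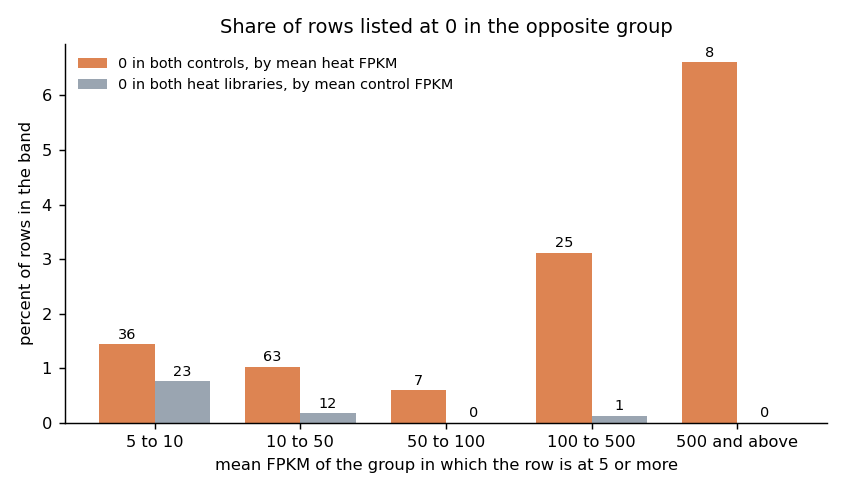
Percent of rows, by band of mean FPKM, that were listed at 0 in both libraries of the opposite group, for heat-expressed rows (orange, the 139 transcripts) and for rows at 5 FPKM or more in both controls (grey, the reverse pattern); numbers above the bars count the rows. The orange share is 6.61% at 500 FPKM and above, against 0% for the grey.

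Together the 139 transcripts held 2.14% of summed FPKM in heat replicate 1 and 2.78% in heat replicate 2. The mean was 2.46% ± 0.453 (SD, n = 2). The 139 were 1.29% of heat-expressed rows, the only rows the rule could admit, and 0.286% of all rows. Their sum was 12840 FPKM in replicate 1 and 15356 FPKM in replicate 2. A few transcripts carried most of it: 9 held 50% of the sum in replicate 1 and 11 in replicate 2, and 27 held 80% of it in each. In the whole library, 593 of 23562 rows above 0 held 50% of summed FPKM in replicate 1, and 758 of 24068 in replicate 2. These counts come from lists of very different length, so they do not show that the sum of the 139 was more concentrated. Without the 10 most abundant, the share of the library was 0.948% and 1.47%. Of the 100 most abundant rows, 5 in heat replicate 1 and 9 in heat replicate 2 belonged to the 139.

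Most of the difference in share between the heat libraries lay in the middle tier of abundance. The first 11 transcripts held 1.27% of summed FPKM in replicate 1 and 1.39% in replicate 2. The 22 transcripts at ranks 12 to 33 held 0.536% and 0.998%, and the remaining 106 held 0.331% and 0.396%. Of the 2516 FPKM by which replicate 2 exceeded replicate 1 over all 139, 5 transcripts accounted for 1421 FPKM. All of those 5 lay at ranks 12 to 17.

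The share depends on which controls must be at 0. Without control replicate 2, 199 transcripts met the rule and their mean share of the heat libraries was 4.25%, because the 60 rows at 0 in control replicate 1 alone were then admitted and held 1.54% and 2.03% of summed FPKM. Without control replicate 1, 173 transcripts met it and the mean share was 2.93%. All of the 139 met both versions, since each is the same rule with 1 condition dropped.

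Over all levels together, values of the 139 transcripts lay about as far apart between the heat replicates as those of other heat-expressed rows with low control values. They lay farther apart than those of heat-expressed rows in general. Neither statement held in every band of level. The median absolute difference between the heat replicates was 0.29 on the log2 scale for the 139, 0.28 for the 243 rows with a higher control value above 0 and at most 1 FPKM, and 0.21 for all other 10606 rows. By level, the medians for the 139 and for all other rows were 0.17 and 0.21 between 5 and 10 FPKM, 0.32 and 0.20 between 10 and 50, 0.23 and 0.19 between 50 and 100, 0.69 and 0.22 between 100 and 500, and 0.25 and 0.32 at 500 or above. For the 243 rows with low control values, the medians in the same bands were 0.25, 0.28, 0.28, 0.40 and 0.33. Differences of at least 1 on this scale were found in 13 of the 139, or 9.35%, in 17 of the 243 rows with low control values, or 6.996%, and in 77 of all other rows, or 0.726%. Most of the other rows exceeded 5 FPKM in a control, and of those 0.496% differed as widely. With 2 heat libraries, and transcripts that are not independent of each other, these shares were not tested against each other.

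Most of the wide differences went one way, in the 139 and in the other rows alike. Of the 139, 81 were higher in heat replicate 2 and 58 in heat replicate 1. Of the 13 that differed by 1 or more on the log2 scale, 12 were higher in replicate 2, and so were 67 of the 77 other rows that differed as widely. The exception among the 139 stood at 22.5 FPKM in replicate 1 and 8.56 FPKM in replicate 2. Among the other rows, 48.9% were higher in replicate 2. Such counts move with the scale: 72 of the 139 and 40.1% of the other rows were higher in replicate 2 after median-of-ratios rescaling, and 99 and 64.7% after rescaling each library to the same sum (TPM).

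The first 11 transcripts by abundance differed by at most 0.30 on the log2 scale between the heat replicates, and 7 of them were higher in replicate 2. In the 22 transcripts at ranks 12 to 33 the median difference, replicate 1 minus replicate 2, was -0.75, 17 were higher in replicate 2, and 8 were higher there by 1 or more on the log2 scale. The transcript at rank 12 stood at 160 FPKM in replicate 1 and 538 FPKM in replicate 2. Rank 13 stood at 196 and 447 FPKM, rank 14 at 180 and 458 FPKM, and rank 15 at 129 and 471 FPKM. All of these were higher in replicate 2 by more than 1 on the log2 scale. Next to them, rank 16 stood at 288 and 305 FPKM, so transcripts of near-equal mean level did not share the difference. The remaining 106 transcripts had a median difference of -0.03, and 57 of them were higher in replicate 2. After median-of-ratios rescaling these values were 0.03 and 49, and after rescaling to TPM they were -0.15 and 74.

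Abundant rows that were also expressed in the controls lay the opposite way between the same libraries. Among rows with a mean of 100 FPKM or more under heat, 24 of the 33 chosen transcripts (72.7%) were higher in heat replicate 2, with a median difference of -0.29 on the log2 scale. Of the 815 rows of that level with more than 5 FPKM in a control, 21.3% were higher in replicate 2, with a median difference of 0.19. Rows with low but measurable control values lay between them: 50% of the 42 rows with a higher control value above 0 and at most 1 FPKM were higher in replicate 2, and 32.4% of the 34 rows with one above 1 and at most 5 FPKM. The proportion higher in heat replicate 2 was thus ordered by control level at this abundance. From the lowest to the highest control level it was 69.7%, 47.6%, 23.5% and 14.2% after median-of-ratios rescaling. After rescaling to TPM it was 75.8%, 57.1%, 41.2% and 38.7%. Each rescaling shifts the log2 difference of every row by the same amount, so the same order on all 3 scales is no separate support. Under 100 FPKM as a whole the proportion was not ordered by control level. From the lowest to the highest control level it was 53.8%, 58.2%, 54.5% and 50.8% on the deposited scale. Between 5 and 10 FPKM, where 36 of the 139 lay, it was 38.9%, 58.9%, 59.1% and 53.7%, lowest for the chosen transcripts. The band from 10 to 50 FPKM, with 63 of the 139, had 61.9%, 58.3%, 49.9% and 52.9%. From 50 to 100 FPKM, where 7 of the 139 lay, it was 57.1%, 53.3%, 51.6% and 35.5%. The labels give no batch, date or time of sampling for either heat library, and the part of any such difference in these values was not tested.

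**Figure D3:**
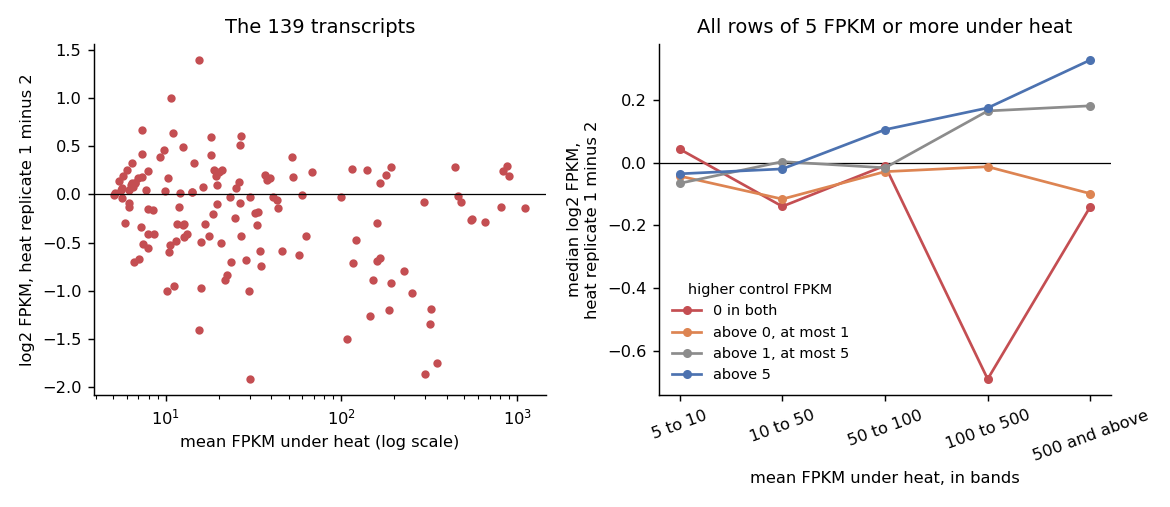
Difference in log2 FPKM between heat replicates 1 and 2 (below 0 means higher in replicate 2): left, each of the 139 transcripts against its mean FPKM (log scale); right, medians by band of mean FPKM for all heat-expressed rows, with 1 line per range of the higher control value. In the band from 100 to 500 FPKM the median is -0.69 for the 139 (25 transcripts) and 0.17 for rows above 5 FPKM in a control.

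The transcripts were scattered over the whole range of ID numbers. The numbers run from 1 to 48614 with 24 missing, and none of the 139 stood next to a missing number. In blocks of 5000 numbers, between 6 and 19 of the 139 were found, the last and shorter block included. The block from 20001 to 25000 held 19, or 2.28% of its heat-expressed rows, and the block from 25001 to 30000 held 6, or 0.477%. The median distance from one of the 139 to the next was 188.5 numbers and the longest 2388. Whether the numbers follow the order of genes on chromosomes is not given by the labels or the table.

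No long run of consecutive numbers was present. There were 11 pairs with consecutive numbers, which took in 22 of the 139 (15.8%), and no run was longer than 2. Within 10 numbers, 33 of the 139 (23.7%) had another of the 139, in 15 pairs and 1 group of 3. By comparison, 505 of the other 10606 heat-expressed rows (4.76%) had one of the 139 within 10 numbers. Of the 36 rows of the reverse pattern, 0 had another of their own kind within 10 numbers. These proportions are given as descriptions, since lists of different size meet their own members at different rates. Under the rule without control replicate 2 the number with a neighbour was 55 of 199, and without heat replicate 1 it was 52 of 176.

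Consecutive partners were close in level in some pairs. In 6 of the 11 pairs the higher mean heat level was less than 1.5 times the lower. The median ratio over the pairs was 1.40. The same ratio was not taken for chosen transcripts without consecutive numbers, so whether consecutive partners were more alike than others was not tested. The closest pair stood at 6.44 and 9.50 FPKM in heat replicates 1 and 2 for one partner and at 7.51 and 8.36 FPKM for the next. A more abundant pair stood at 56.5 and 159 FPKM for one partner and at 106 and 196 FPKM for the next, and another transcript of 42.2 and 43.9 FPKM lay 3 numbers further on. Together these formed the group of 3.

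Unlike pairs were also present. The widest paired a transcript at 196 and 447 FPKM in heat replicates 1 and 2 with one at 21.7 and 14.4 FPKM, a ratio of 17.8 between their means. The most abundant consecutive pair stood at 192 and 167 FPKM for one partner and at 503 and 602 FPKM for the other, and its partners differed in which replicate was higher. Of the 11 consecutive pairs, 6 had both partners higher in heat replicate 2. In 1 pair both were higher in heat replicate 1, and 4 were split. Agreement in direction was not counted for chosen transcripts without consecutive numbers, so a link between direction and ID number was not tested.

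Abundant transcripts with close ID numbers included the transcripts at ranks 12 and 14, which lay 9 numbers apart and were both higher in heat replicate 2 by more than 1 on the log2 scale. Those at ranks 15 and 25 lay 2 numbers apart and stood at 129 and 471 FPKM and at 123 and 198 FPKM, log2 differences of -1.86 and -0.69. Close copies of a gene can lie side by side, and the treatment of reads that map to several copies is unknown, so values of single transcripts in a pair are uncertain. No 2 of the 139 had identical heat values.

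The rows directly next to the 139 were also examined, leaving out the 139 themselves. Of 253 such rows, 93 (36.8%) were at 0 in all 4 libraries, and 43 (17.0%) were at 0 in both controls and above 0 in a heat library, none above 8.92 FPKM in either. A further 67 (26.5%) were above 0 in both groups with both heat libraries above both controls, and 25 (9.88%) had both heat libraries below both controls. Next to the other heat-expressed rows, the corresponding percentages were 24.3%, 7.24%, 25.0% and 28.7%. Over all 48590 rows without a lipoxygenase name they were 43.5%, 7.40%, 15.9% and 21.1%.

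Some neighbours were strongly heat-abundant without being at 0 in the controls. Of the 253 adjacent rows, 28 (11.1%) were heat-expressed with a heat mean at least 10 times the control mean, against 324 rows (1.82%) next to the other heat-expressed rows. For these 28, mean heat levels ran from 9.15 to 5297 FPKM with a median of 96.3, and mean control levels from 0.0172 to 47.8 FPKM. In all, 48 of the 139 stood next to such a row or next to another of the 139. These proportions were not tested.

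**Figure D4:**
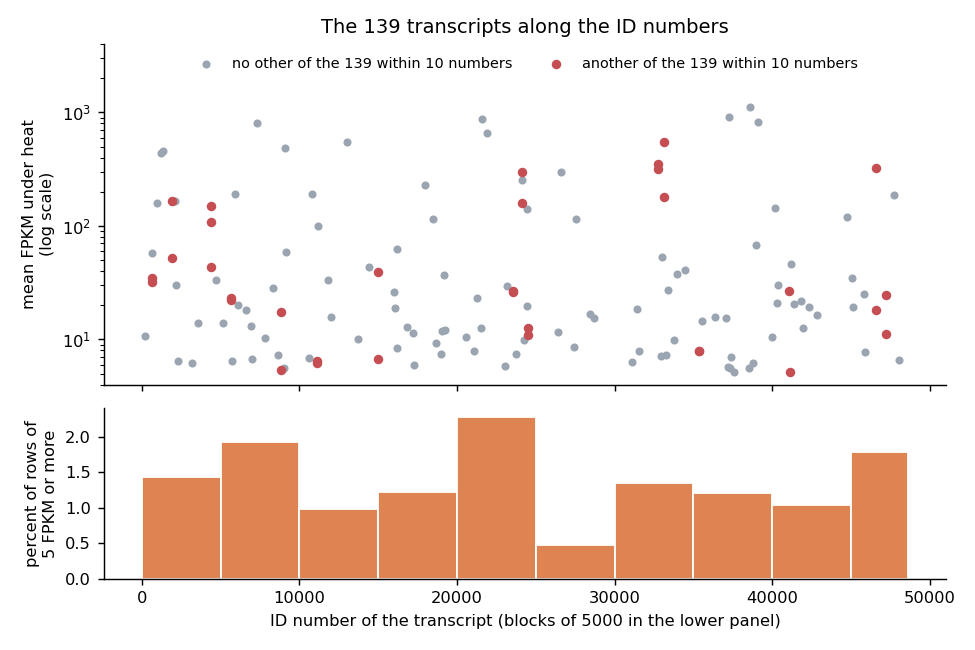
Upper panel, mean FPKM under heat (log scale) of each of the 139 transcripts against its ID number, with the 33 that have another of the 139 within 10 numbers in red; lower panel, the 139 as a percent of all heat-expressed rows, in blocks of 5000 numbers. The transcripts are spread over the whole range, with 2.28% in the block from 20001 to 25000 and 0.477% in the next.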

How the data were processed

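RNA-seq was performed on 2 control and 2 heat-stressed samples. The authors deposited 1 table of FPKM values with 1 column per sample; 0 columns belonged to other samples. Tools listed in the submitters' processing notes are HISAT2 2.2.1, StringTie 2.0 and fastp 0.20.1. Genome build, annotation, settings and the handling of reads with several matches are not given by the labels or the table. Read depth is unknown, so no counting interval is given.

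Rows were selected with Python 3.11.15 and pandas 2.3.3: no LOX in the name, exactly 0 in both controls, and at least 5 FPKM in both heat libraries. The members and lists were chosen with earlier results of these data known. Since the rule used all 4 libraries, no test was run. Levels, shares of summed FPKM, log2 ratios between heat replicates (no pseudocount) and distances in ID number were described beside the same values over all other rows reaching that minimum under heat. A neighbour was another member within 10 numbers. IDs are printed for the 2 members with the highest mean heat level. The selection, neighbour count and rescaling were tested on simulated data. The split of rows by control level and by rank was chosen after the values had been seen, as were the rescaled counts of transcripts higher in 1 heat replicate. The labels call the replicates biological but do not say whether they are separate plants, so what the spread between them covers is unknown.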

Additional observations from a re-analysis of the deposited data

How the results depend on the processing

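Alternatives changed the rule by 1 choice at a time. The 139 transcripts became 424 at a minimum of 1 FPKM and 37 at a minimum of 50 FPKM, and lay between 93 and 201 under a minimum of 10 FPKM, controls of up to 0.1 FPKM, median-of-ratios rescaling and rescaling to TPM; without single libraries the number was 166 to 199. The mean share of summed FPKM, 2.46%, was 2.97% with controls of up to 0.1 FPKM and 2.20% to 4.25% without single libraries; it stayed within 1 SD in the other alternatives. The 33 of 139 transcripts with a neighbour became 148 of 424, 19 of 93 and 8 of 37 at minimums of 1, 10 and 50 FPKM. They became 54 of 201 after rescaling to TPM and 52 of 139 at a distance of 50 numbers. Without single libraries they ran from 42 of 166 to 55 of 199. These counts move with the size of the list. The median absolute log2 difference between heat replicates, 0.29, stayed between 0.28 and 0.36. No paired analysis was possible because no result comes from a test. Read depth is unknown, so how far 0 in the controls reflects depth cannot be stated.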
